A study of Mus musculus with 15 samples.

Results

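Dopaminergic nuclei from the ventral tegmental area (VTA) of mice kept 21 days in the home cage after cocaine self-administration were compared with the same kind of nuclei from mice that had only learned to press a lever for food. The samples were chosen by their labels: 4 libraries of abstinence and 4 of food training, 8 of the 15 libraries of the series. All mice were male heterozygous DAT-Cre animals, 8 to 12 weeks old per the labels, which express Cre recombinase from the dopamine transporter locus. Each had received the virus AAV5-DIO-KASH-HA in the VTA, which after 14 days puts an HA-tagged protein on the nuclear envelope of Cre-expressing cells, and each had been food trained over 7 days. Nuclei of the food-trained group were taken after the last food session. The abstinence group then underwent jugular catheter surgery, worked for cocaine in daily 1-hour sessions first 5 days at 0.3 mg/kg per infusion and then 10 days at 1.0 mg/kg per infusion, and was killed after 21 days of forced abstinence. The groups therefore also differ in surgery, in time since food training and in recent lever pressing, and these cannot be told apart from cocaine and its withdrawal. The labels give both groups the same age range and virus time, although the abstinence group lived through the cocaine days and 21 more days. Age at death and time since the virus may therefore differ too, and cannot be told apart either. Each library came from the pooled tissue of 2 mice. HA-positive nuclei were sorted, so the libraries hold nuclear RNA of cells in which the Cre driver and the virus were active. Dopaminergic nuclei at the end of cocaine maintenance (3 libraries) and non-dopaminergic, HA-negative nuclei after food training (4 libraries) serve below only as reference levels.

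Dopamine neurons of the VTA make dopamine from tyrosine through tyrosine hydroxylase (Th) and aromatic amino acid decarboxylase (Ddc), load it into vesicles through Slc18a2 and take it back up through Slc6a3, the transporter that cocaine blocks. Their firing is set by glutamate, GABA and acetylcholine receptors and by dopamine autoreceptors coupled to GIRK potassium channels. Long-term changes after drug exposure have been studied at these receptors and at chromatin, where enzymes such as Setdb1, which methylates lysine 9 of histone H3, silence genes and retroelements.

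Total counts ranged from 25813700 to 57522200 in the food-trained libraries and from 37314300 to 59046600 in the abstinence libraries. Genes with at least 1 count numbered 14841 to 18372 after food training and 17444 to 19750 at abstinence, and the lowest values, 14841 and 15415, belonged to food-trained replicates 3 and 2. Log2 levels correlated between libraries with a mean Pearson r of 0.764 within food training, 0.840 within abstinence and 0.799 between the groups over the genes tested, and genes do not count as replicates. The label of the nuclei was checked on 8 dopamine neuron markers: their summed level was 4859 to 9098 CPM after food training and 4424 to 6838 CPM at abstinence, against 288 to 424 CPM in non-dopaminergic nuclei. Levels are in CPM, read counts divided by a TMM-scaled library total, with factors from all 15 libraries. Slc6a3 itself stood at 2271, 2913, 2270 and 4501 CPM in the food-trained libraries and at 2510, 3391, 2871 and 1749 CPM at abstinence, so the groups overlapped. Oligodendrocyte markers summed to 804 to 1344 CPM after food training and 609 to 1116 CPM at abstinence, against 6812 to 21426 CPM in non-dopaminergic nuclei. Within that list, Mobp and Cldn11, which encode myelin proteins, had lower means at abstinence, with log2 fold changes of -1.02 and -1.19. GABA neuron markers summed to 161 to 220 CPM after food training and 196 to 413 CPM at abstinence, with the 2 highest sums in abstinence replicates 2 and 3. The part of such admixture in the values below was not tested, and in bulk nuclei a smaller share of cells of a type and less RNA per nucleus cannot be told apart.

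Differences between the groups in genes detected in both included a higher level of the transferrin receptor gene Tfrc, the histone methyltransferase gene Setdb1 and the adaptor gene Apbb3 at abstinence, and lower levels of haemoglobin genes and of the cell cycle inhibitor gene Cdkn1a. No gene passed a false discovery threshold with edgeR's quasi-likelihood test: 0 of 19060 genes tested (0%) had a Benjamini-Hochberg adjusted p under 0.05, and the lowest adjusted p was 0.999974. At an unadjusted p under 0.05, edgeR counted 819 genes (4.30%), of which 616 were higher (3.23%) and 203 lower (1.07%) at abstinence. DESeq2, run on the same counts, called 125 of 18598 genes with an adjusted p under 0.05 (0.672%), 94 higher and 31 lower, and limma called 0. In 85 of the 94 and 19 of the 31, every library of the lower group held at most 3 counts. Among the higher calls 16 had counts in 1 abstinence library alone. The calls in which both groups were above 3 counts in at least 1 library numbered 9 higher and 12 lower, and Tfrc, Setdb1, Apbb3, Cdkn1a and the haemoglobin genes Hba-a1, Hba-a2 and Hbb-bs were among them. The p-values measure the spread between these pools of mice.

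In 637 genes (3.34%) the levels of the groups did not overlap at all, 457 higher (2.40%) and 180 lower (0.944%) at abstinence. Of the 457, 77 had at most 3 counts in every food-trained library, while none of the 180 was so low in every abstinence library. With upper quartile scaling in place of TMM, 371 were higher and 263 lower, and with DESeq2's size factors 414 and 215.

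Effect sizes depended on abundance. Over all 19060 genes the median log2 fold change (abstinence minus food training) was 0.04, the interquartile range ran from -0.34 to 0.48, and the median standard error was 0.72. Genes were split by abundance into 4 bins of 4765. In the highest bin the interquartile range ran from -0.18 to 0.20, the median standard error was 0.31, and 26 of 4765 genes exceeded 1 in size. For a typical gene in that bin the 95% interval reached 0.60 to either side. In the lowest bin 2677 of 4765 genes exceeded 1 and the median standard error was 2.44. Most of the excess of higher over lower genes came from there: at an unadjusted p under 0.05, 402 genes were higher and 57 lower in the lowest bin, 45 and 10 in the next, 92 and 54 in the one above and 77 and 82 in the highest. Among the genes tested, 491 had at most 3 counts in every food-trained library and 67 in every abstinence library. The part of the lower number of genes detected in food-trained replicates 2 and 3 was not tested directly; without both libraries, 404 genes were higher and 233 lower at an unadjusted p under 0.05.

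**Figure D1:**
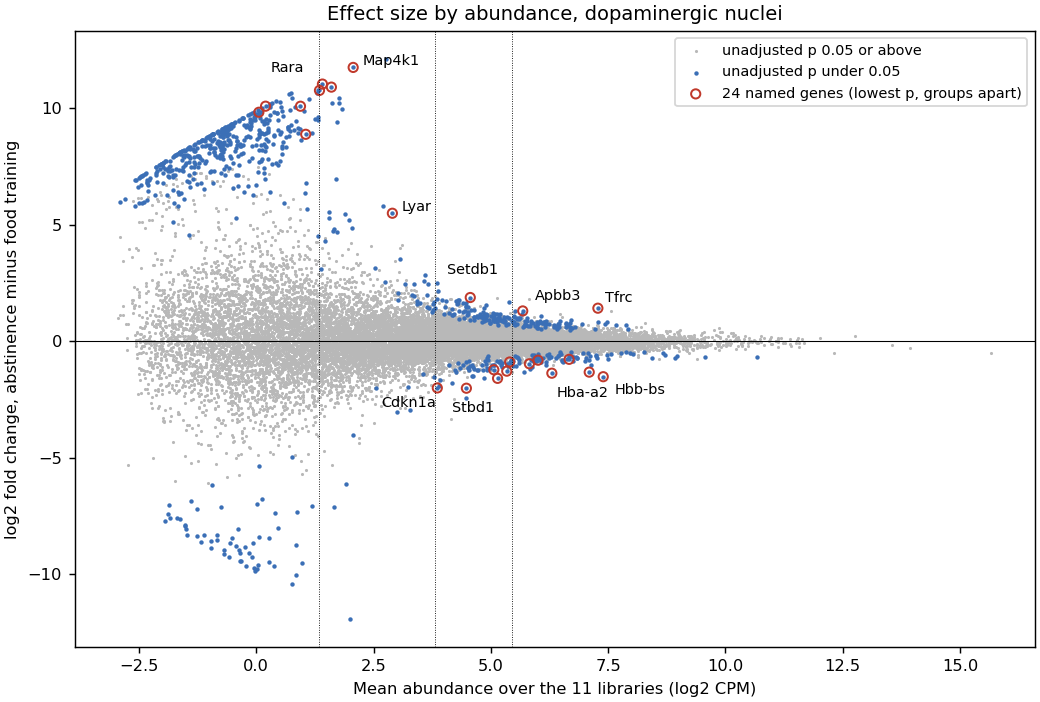
Log2 fold change (abstinence minus food training, y axis) against mean abundance (log2 CPM, x axis) for the 19060 genes tested. Grey and blue points are genes at an unadjusted edgeR p of 0.05 or above and under 0.05, red rings are 24 genes named by a rule on p and group overlap, and dotted lines part the 4 abundance bins. The cloud narrows to the right, and the blue points over 5 belong to genes near 0 after food training.

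**Figure D2:**
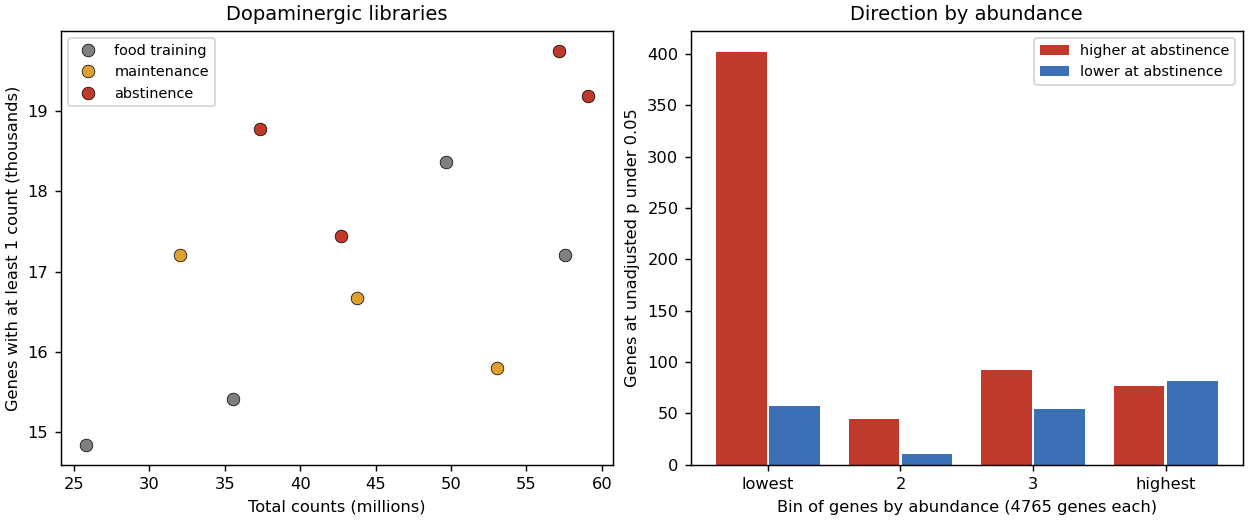
Left, genes with at least 1 count against total counts, each on a scaled axis, for each dopaminergic library, coloured by group. Right, genes at an unadjusted edgeR p under 0.05 by abundance bin and direction: 402 higher and 57 lower in the lowest bin, 77 higher and 82 lower in the highest.

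Among protein-coding genes (14135 by RefSeq) the median log2 fold change was 0.05, and among 2927 long noncoding RNA genes it was -0.03. In the highest abundance bin, the shortest, middle and longest of 3 equal classes of gene span had medians of 0.00, 0.04 and -0.02, with no steady order by the length of the transcribed unit.

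Tfrc (GRCm38.p6 chr16:32608896-32632794), which brings transferrin-bound iron into cells, had the lowest p of all genes. Its level was 123.8, 87.5, 57.5 and 91.2 CPM in the 4 food-trained libraries and 307, 227, 150 and 277 CPM in the 4 abstinence libraries. Every abstinence library lay above every food-trained one. The log2 fold change was 1.41 (SE 0.28), a 2.66-fold higher level, with an edgeR p of 0.000209 (adjusted p 0.999974) and a DESeq2 adjusted p of 0.000268. Maintenance libraries stood at 134 ± 12.8 CPM (SD, n = 3) and non-dopaminergic nuclei at 133 ± 35.9 CPM (n = 4).

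Setdb1 (chr3:95323525-95357202) was measured at 11.04, 8.20, 10.99 and 14.8 CPM after food training and at 29.3, 36.7, 36.8 and 62.4 CPM at abstinence. Every abstinence library lay above the highest food-trained one. Its log2 fold change of 1.87 (SE 0.41, 95% interval 1.06 to 2.68) came with a DESeq2 adjusted p of 0.000949, against an edgeR adjusted p of 0.999974. At maintenance the level was 16.9 ± 6.09 CPM (n = 3), and in non-dopaminergic nuclei it was 51.7 ± 7.63 CPM (n = 4), so the abstinence mean of 41.3 CPM lay between those of maintenance and of non-dopaminergic nuclei.

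Apbb3, which encodes an adaptor that binds the amyloid precursor protein, stood at 35.4, 42.3, 24.1 and 36.3 CPM after food training and at 105.3, 66.2, 69.7 and 99.0 CPM at abstinence. Its log2 fold change was 1.30 (SE 0.27), with a DESeq2 adjusted p of 0.00174. Lyar, which encodes a nucleolar zinc finger protein, went from 0.138, 0, 0 and 0.720 CPM to 16.9, 5.06, 5.21 and 12.1 CPM. Maintenance libraries held 14.0 ± 7.48 CPM of Lyar (n = 3), near the abstinence level.

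The other 8 genes with the lowest p among those higher at abstinence had no count in any food-trained library. Against a floor of 3 counts per library, Map4k1, a kinase upstream of JNK that is best known from blood cells, was at least 124-fold higher, with 14.95, 4.30, 6.76 and 12.4 CPM at abstinence. Rara, a receptor for retinoic acid, was at least 76.6-fold higher on average, although its abstinence libraries ranged from 0.482 to 11.7 CPM. Tpcn2, an endolysosomal cation channel, was at least 69.7-fold higher, and its level in non-dopaminergic nuclei was 9.59 ± 2.16 CPM (n = 4). The abstinence means of Aoc2, Cyp2j12, Il4i1 and Tusc1, from 1.32 to 4.83 CPM, were at least 17.0- to 62.0-fold higher. All these folds set the abstinence mean against the floor, so they are no lower bound for single libraries. Single libraries weighed on these means: Aoc2 ranged from 0.151 to 12.9 CPM at abstinence and Tusc1 from 0.0718 CPM, which was 3 counts, to 2.91 CPM. Non-dopaminergic nuclei carried all 8 of these genes at means between 0.731 and 19.7 CPM, although Il4i1 had counts in 1 of those 4 libraries. In DESeq2 the lowest adjusted p among named genes belonged to Ttr, which carries thyroid hormone and retinol and is known from the choroid plexus, at 0.766, 1.94, 3.05 and 2.20 CPM at abstinence and 0 after food training. Fmo1, Osgin1, Catsper3, Oaf and Plbd1 followed, also at 0 in every food-trained library and at means of 0.841 to 1.99 CPM at abstinence.

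On the lower side stood the haemoglobin genes. Their proteins carry oxygen in red blood cells, and transcripts have been reported in midbrain dopamine neurons as well. Hba-a2 (chr11:32296492-32297310) stood at 181.7, 142.5, 76.3 and 69.1 CPM after food training and at 48.3, 46.1, 50.2 and 38.05 CPM at abstinence. Hbb-bs (chr7:103826523-103827928) went from 470, 288, 139 and 135 CPM to 99.8, 92.2, 106.1 and 63.5 CPM. Food-trained replicates 1 and 2 were the highest for both genes, and the groups did not overlap. Log2 fold changes were -1.37 (SE 0.35) for Hba-a2 and -1.52 (SE 0.39) for Hbb-bs, with DESeq2 adjusted p-values of 0.0188 and 0.00929. Hba-a1 differed by -1.33, and by -0.83 without food-trained replicate 1. Hbb-bt, chosen after its values were seen, differed by -1.78 without overlap. Alas2, the red cell enzyme of haem synthesis, likewise chosen afterwards, differed by -0.42 with overlapping groups. Non-dopaminergic nuclei of food-trained mice held 47.5 ± 17.9 CPM of Hba-a2 and 84.7 ± 30.4 CPM of Hbb-bs (n = 4), close to the abstinence level, and maintenance libraries held 72.9 ± 29.8 and 156 ± 49.3 CPM (n = 3). The sum of vascular markers was 3.11, 4.36, 0 and 41.2 CPM in the food-trained libraries and 29.7, 6.13, 17.6 and 20.8 CPM at abstinence. The part of residual blood in the haemoglobin values was not tested. Hba-a1 and Hba-a2 are near-identical copies, and how reads were divided between them is uncertain.

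The sequences upstream of the start sites of 4 genes are shown because these genes had groups apart with counts in every library, Setdb1 and Tfrc on the higher side and the 2 globin genes on the lower. Each line gives the 250 bases before the annotated start from RefSeq (GRCm38.p6), 5′ to 3′ on the gene's strand. Capitals mark matches, on either strand, to 5 short motifs known from promoters, and no matches overlapped in these windows. One is the box read by the core TATA-binding protein, searched by the letters TATAA. Another is the binding motif of the nuclear factor Y complex, searched by the letters CCAAT. Another is the binding motif of the erythroid GATA factors, searched by the letters GATAA. Another is the motif of the Krüppel-like factors of red cells, searched by the letters CACCC. The last is the GC box of the Sp factors, searched by the letters GGGCGG.
Setdb1 chr3:95357203-95357452 (minus strand): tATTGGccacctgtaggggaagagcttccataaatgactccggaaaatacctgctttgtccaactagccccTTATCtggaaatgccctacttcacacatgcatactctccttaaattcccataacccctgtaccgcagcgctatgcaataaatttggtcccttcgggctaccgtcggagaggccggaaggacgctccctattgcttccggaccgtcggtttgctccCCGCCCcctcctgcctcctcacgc
Tfrc chr16:32608646-32608895 (plus strand): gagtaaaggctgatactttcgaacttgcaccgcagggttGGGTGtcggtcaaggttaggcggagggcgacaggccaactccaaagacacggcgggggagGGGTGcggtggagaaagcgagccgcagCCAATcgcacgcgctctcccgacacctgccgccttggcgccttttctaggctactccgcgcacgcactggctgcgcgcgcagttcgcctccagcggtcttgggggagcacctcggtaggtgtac
Hba-a2 chr11:32296242-32296491 (plus strand): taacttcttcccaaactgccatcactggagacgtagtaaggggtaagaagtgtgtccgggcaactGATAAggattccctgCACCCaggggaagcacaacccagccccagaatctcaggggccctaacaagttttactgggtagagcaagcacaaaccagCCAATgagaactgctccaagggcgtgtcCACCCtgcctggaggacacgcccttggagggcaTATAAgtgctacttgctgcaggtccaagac
Hbb-bs chr7:103827929-103828178 (minus strand): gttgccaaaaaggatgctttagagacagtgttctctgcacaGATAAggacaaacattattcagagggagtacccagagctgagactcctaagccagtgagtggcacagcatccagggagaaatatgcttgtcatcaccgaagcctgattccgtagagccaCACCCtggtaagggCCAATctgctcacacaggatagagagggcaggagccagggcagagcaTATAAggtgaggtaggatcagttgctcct
The 2 globin promoters each held every motif of this set except the GC box. The Setdb1 window lacked a match to the TATA motif and to the CACCC box, and the Tfrc window held a CCAAT box together with the letters of the CACCC box. Over 32851 RefSeq promoter windows of the same length, 22.78% held the TATA box, 33.85% the CCAAT box, 22.58% the GATA motif, 52.01% the CACCC box and 32.74% the GC box, so each match is common and is only a description. The Hba-a1 window, shifted by 3 bases, was identical to that of Hba-a2 over 247 of 247 bases.

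Cdkn1a, which encodes the cyclin-dependent kinase inhibitor p21, stood at 30.2, 9.97, 20.4 and 23.4 CPM after food training and at 4.75, 7.77, 6.25 and 2.35 CPM at abstinence. The groups did not overlap, although food-trained replicate 2 lay close to the abstinence libraries, and the log2 fold change was -2.01 (SE 0.55, DESeq2 adjusted p 0.00845). Maintenance libraries held 18.4 ± 0.167 CPM (n = 3). Asphd2, of the aspartate beta-hydroxylase family, was measured tightly, at 73.5 to 91.7 CPM after food training and 42.0 to 58.1 CPM at abstinence, a difference of -0.82 on the log2 scale (SE 0.22, DESeq2 adjusted p 0.00565). Stbd1, which tethers glycogen, went from 21.8, 44.3, 52.2 and 26.9 CPM to 15.4, 4.55, 10.4 and 5.65 CPM. Its non-dopaminergic level was 1.48 ± 0.776 CPM (n = 4). Prps1l3, related to the enzyme that makes phosphoribosyl pyrophosphate, went from 34.6 to 64.2 CPM to 13.9 to 22.9 CPM. Banp, Knop1, Ndrg1, Samd12 and Nenf, the last of which encodes the secreted factor neudesin, had log2 fold changes from -1.29 to -0.78, and the groups were apart in each. Of the 12 lower genes named by the same rule, DESeq2 called 7, and of the 12 higher genes it called 12, against 0.672% of all genes. The rule picked these genes from the same counts by low p and groups apart, so the calls are no separate support. Of the 12 higher genes, 8 had no count in any food-trained library.

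**Figure D3:**
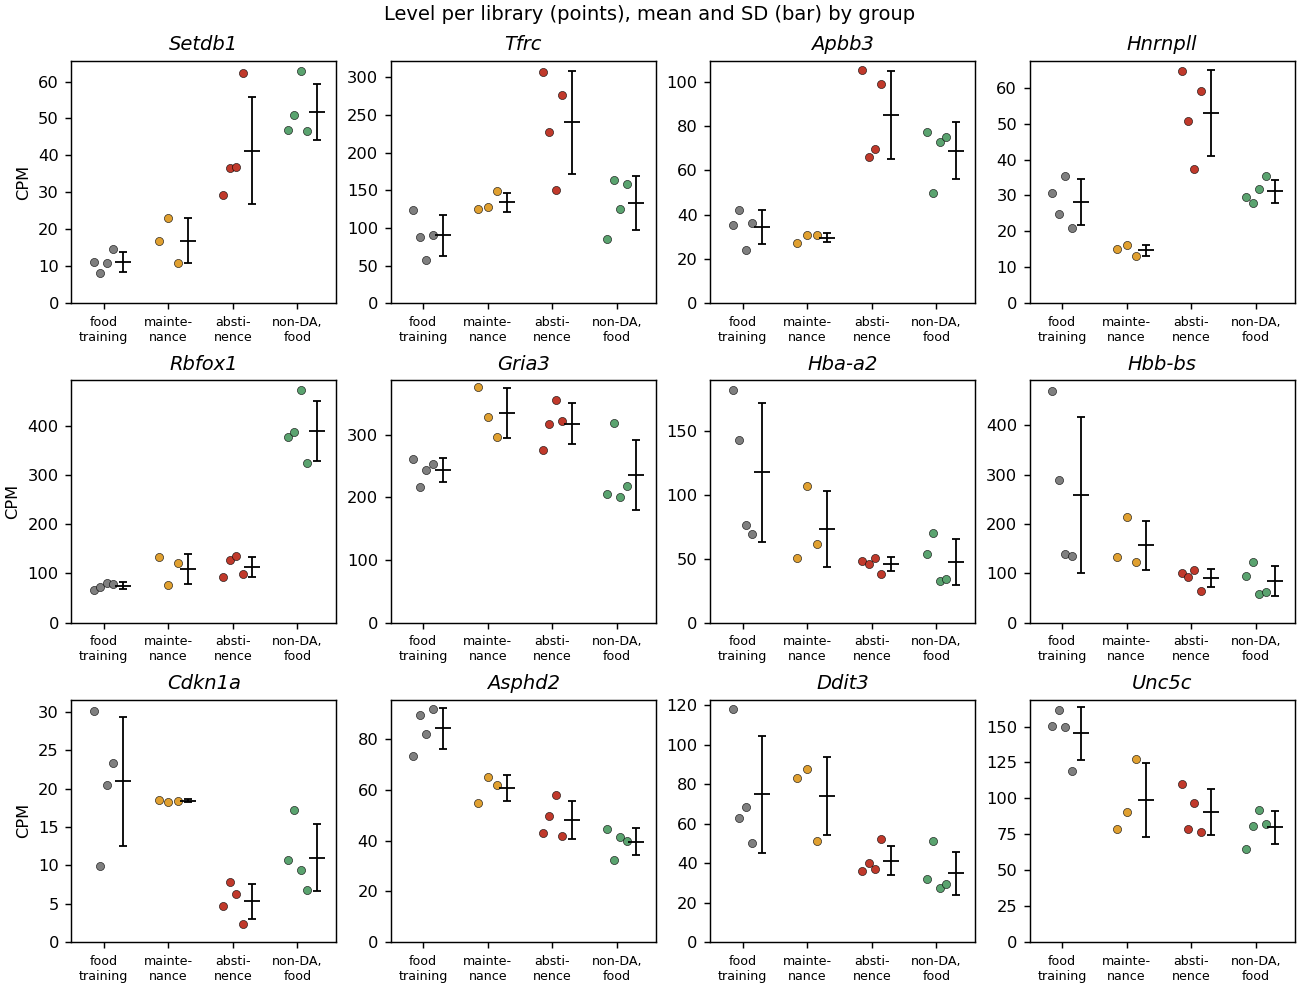
Level in CPM (y axis, from 0) of 12 genes in each library (points), with the group mean and SD to the right, for food training, maintenance and abstinence in dopaminergic nuclei and for food-trained non-dopaminergic nuclei. The abstinence points lie above all food-trained points in the first 6 panels and below them in Hba-a2, Hbb-bs, Cdkn1a, Asphd2 and Unc5c, while in Ddit3 food-trained replicate 4 at 50.4 CPM falls under the highest abstinence library at 52.0 CPM.

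Genes were also read by pathway, in 42 lists with 1326 genes tested, 33 of pathways, complexes or gene families and 9 of cell type markers. None passed the edgeR adjusted p, and 31 were higher and 17 lower at an unadjusted p under 0.05, against 3.23% and 1.07% of all genes tested. Of the 9 marker lists, 3 had a median outside the interquartile range of all genes, at 0.56 for 3 GABA neuron markers, -0.53 for 3 serotonin neuron markers and 1.52 for 2 oligodendrocyte precursor markers. All 8 dopamine neuron markers had lower means at abstinence (median -0.30). The part of these shifts in the pathway medians was not tested. Over all genes tested, 10119 of 19060 (53.1%) had a higher mean at abstinence, and the median log2 fold change was 0.04. The counts of higher and lower genes below are counts of means, not of calls, and many lie near that share. The sign of the median changed in at least 1 alternative in 29 of the 42 lists.

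Genes of dopamine handling mostly had lower means, none past the adjusted threshold. Of 12 genes for synthesis, packaging, reuptake and breakdown, 10 had a lower and 2 a higher mean at abstinence, with a median log2 fold change of -0.21 that kept its sign in every alternative run. Th stood at 670, 558, 1359 and 927 CPM after food training and at 609, 500, 510 and 557 CPM at abstinence. Food-trained replicate 3 was the highest and the groups overlapped. The log2 fold change of -0.70 (SE 0.32) became -0.40 without that library, with the edgeR p going from 0.0495 to 0.209. Ddc differed by -0.32 (SE 0.33), Slc6a3 by -0.20 (SE 0.30) and Slc18a2 by -0.10 (SE 0.26). Maoa and Aldh1a1, which break down dopamine and its aldehyde product, differed by -0.50 and -0.42 with overlapping groups. Of 13 transcription factors that specify dopamine neurons, 12 were lower, with a median of -0.38, which was 0.15 without food-trained replicates 2 and 3. Lmx1b ranged from 2.44 to 45.8 CPM after food training and from 0 to 6.80 CPM at abstinence. En1 stood at 82.5, 85.9, 215 and 83.0 CPM and then at 99.5, 61.7, 53.3 and 92.0 CPM, so that food-trained replicate 3 was again the outlying library. Nr4a2, Pitx3 and Foxa2 differed by -0.28, -0.50 and -0.22, each by less than its standard error. Without food-trained replicate 3 these values were 0.04, 0.22 and 0.17, and that of En1 went from -0.61 to -0.13.

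No receptor gene passed edgeR's adjusted threshold, and DESeq2 called 1, Gabrr1. Of 9 AMPA and kainate receptor genes 6 were higher (median 0.10, and -0.04 without food-trained replicate 2), and Gria3, an AMPA subunit, was the one whose groups were apart. Its level was 261, 216, 244 and 252 CPM after food training and 275, 317, 355 and 322 CPM at abstinence, a log2 fold change of 0.37 (SE 0.19, edgeR p 0.0684). The maintenance level of Gria3 was 334 ± 40.0 CPM (n = 3), also above food training. The 7 NMDA receptor genes had a median of 0.42, with 4 higher and 3 lower, and Grin1, the obligatory subunit, stood at 514, 307, 302 and 575 CPM and then at 494, 713, 798 and 280 CPM. Grin1 was thus highest in abstinence replicates 2 and 3. The same libraries had the highest sums of GABA neuron markers (413 and 376 CPM) and of glutamate neuron markers (963 and 819 CPM). Whether these values are linked was not tested. Of 7 metabotropic glutamate receptor genes 6 were higher (median 0.23), led by Grm3 at 1.06 (SE 0.57). Of 18 GABA receptor genes 12 were higher (median 0.20), and the median was -0.06 without abstinence replicate 2. Gabra6 and Gabrr1, at 0 in all food-trained libraries and under 8 CPM at abstinence (Gabrr1 at 0, 0, 2.34 and 2.01 CPM), were the ones at an unadjusted p under 0.05, 2 of 18 against 4.30% of all genes.

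Dopamine receptor and GIRK channel genes (8 tested) had a median of -0.29, with Kcnj6, a GIRK channel of dopamine neurons, at -0.53 (SE 0.31). Drd3 had no count after food training and 0 to 3.66 CPM at abstinence. The 9 nicotinic acetylcholine receptor genes had a median of -0.03. Chrna6 and Chrnb3, which are marked by their expression in dopamine neurons, differed by -0.19 (SE 0.28) and -0.25 (SE 0.29). The 14 opioid and endocannabinoid genes had a median of 0.00, and 10 neurotrophic factor and receptor genes one of -0.11, with Bdnf at -0.28 (SE 0.31). Of 66 potassium channel genes, 33 were higher and 33 lower. Kcnt1, a sodium-activated channel, was at 87.1, 55.8, 38.4 and 92.2 CPM and then at 112.6, 124.0, 124.4 and 91.4 CPM, with 1 abstinence library within the food-trained range. Kcnd3, an A-type channel subunit, had a log2 fold change of -0.50 (SE 0.22). The 38 sodium, calcium and HCN channel genes had a median of -0.08 with none at an unadjusted p under 0.05.

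Immediate early genes, which respond to recent activity, had a median of -0.30 over 15 genes (0.11 with the replicate number as a block), 5 higher and 10 lower, with 0 at an unadjusted p under 0.05 and a median standard error of 1.34. Egr2, at 70.95, 4.96, 0 and 10.7 CPM and then at 3.24, 6.98, 1.85 and 3.66 CPM, was high in 1 food-trained library alone. Arc was at or under 1.33 CPM in every food-trained library and reached 17.4 CPM in abstinence replicate 3 alone. Synaptic vesicle release genes (29, median 0.03) and synaptic adhesion organizers (22, median 0.08) held 0 genes at an unadjusted p under 0.05, a threshold that 4.30% of all genes passed. Of 37 cAMP signalling genes 23 were higher (median 0.09). Pde8b, a cAMP phosphodiesterase, was at 14.3 to 27.8 CPM after food training and at 32.4 to 36.5 CPM at abstinence, without overlap, while Creb1 differed by -0.55 (SE 0.27).

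In axon guidance (61 genes, median 0.15) 1 gene was higher and 3 were lower at an unadjusted p under 0.05, against 3.23% and 1.07% of all genes. Leaving out abstinence replicate 3 gave a median of -0.02. Leaving out food-trained replicate 3 gave -0.0037, and leaving out replicate 2 as well gave -0.05. Unc5c, a netrin receptor, stood at 150.6, 161.8, 149.5 and 119.0 CPM after food training and at 110.1, 78.6, 96.9 and 76.8 CPM at abstinence. All 4 abstinence libraries were lower than the lowest food-trained one, and the log2 fold change was -0.69 (SE 0.23, edgeR p 0.0107). Efnb2, an ephrin ligand, went from 46.9, 70.0, 53.7 and 65.2 CPM to 24.8, 21.9, 45.01 and 40.1 CPM, also apart, at -0.84 (SE 0.33). Sema6a, a semaphorin, differed in the other direction at 0.95 (SE 0.39) with overlap, and Sema3d was higher without overlap at 12.2 to 31.5 CPM against 0 to 10.9 CPM. Protocadherin genes, clustered adhesion genes that share parts of their transcripts, were higher in 42 of 67 (median 0.14, and -0.04 without abstinence replicate 2). Pcdhb16 and Pcdhga3 had groups apart, with log2 fold changes of 2.51 (SE 1.02) and 2.14 (SE 0.99), though reads of the gamma cluster may be divided among overlapping genes.

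Chromatin genes were examined in 8 lists. Of 21 genes for H3K9 methylation, HP1 and the HUSH complex 13 were higher, with a median of 0.12 that stayed positive in every alternative run. Beside Setdb1, its nuclear partner Atf7ip was at 106.2, 159.3, 117.5 and 162.2 CPM and then at 212.3, 213.3, 165.3 and 165.9 CPM. The groups were just apart, 0.46 apart on the log2 scale (SE 0.22, edgeR p 0.0510). Ehmt2, which adds the mono- and dimethyl marks on H3K9, was at 22.8 to 43.3 CPM and then at 39.5 to 87.2 CPM, with overlap, at 0.89 (SE 0.52). Setdb1 and Atf7ip did not have their highest level in the same library, which was replicate 4 for Setdb1 and replicates 1 and 2 for Atf7ip. Polycomb genes (34) had a median of -0.06. Cbx7 had no overlap, at 0 to 16.4 CPM against 27.7 to 32.9 CPM, and Ring1 differed by 0.88 (SE 0.42) with overlap. In 36 histone deacetylase, sirtuin and corepressor genes the median was -0.05. Hdac1 was at 24.2, 22.2, 78.4 and 25.0 CPM after food training and at 12.7 to 25.3 CPM at abstinence, so that its log2 fold change of -1.09 (SE 0.48) came largely with food-trained replicate 3. Kmt2a, an H3K4 methyltransferase, was at 379, 331, 729 and 642 CPM and then at 265, 321, 459 and 284 CPM, a log2 fold change of -0.66 (SE 0.30). The 25 genes of its list had a median of -0.09, and Kat8, an acetyltransferase of histone H4, was the gene with groups apart, at 5.82 to 13.8 CPM against 14.3 to 25.7 CPM.

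Histone demethylases (22 genes) had a median of 0.01, with Kdm1a just apart at 12.3 to 20.2 CPM against 20.3 to 38.6 CPM. DNA methylation genes (21) had a median of 0.08, with Tdg, a glycosylase of active demethylation, apart at 8.46 to 17.1 CPM against 19.5 to 22.7 CPM. Chromatin remodellers (36) had a median of -0.08. Chd6 was at 378, 407, 494 and 512 CPM and then at 295, 271, 363 and 320 CPM, apart, at -0.53 (SE 0.20), while Ino80 differed by 1.12 (SE 0.50) with overlap and Smarcd1 by 1.04 (SE 0.49) without. Of 348 zinc finger genes named Zfp, many of which encode repressors that recruit H3K9 methylation, 209 were higher (median 0.12). At an unadjusted p under 0.05, 14 were higher and 4 lower, a share of 5.17% against 4.30% over all genes, and groups were apart in 11 higher and 7 lower, against 2.40% and 0.944% of all genes. Zfp317 stood at 50.4, 22.0, 25.8 and 36.7 CPM and then at 55.1, 69.7, 51.3 and 71.5 CPM. Zfp52 stood at 39.2 to 52.95 CPM and then at 12.4 to 28.5 CPM, and Zfp420 at 31.0 to 49.5 CPM and then at 14.2 to 19.2 CPM.

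**Figure D4:**
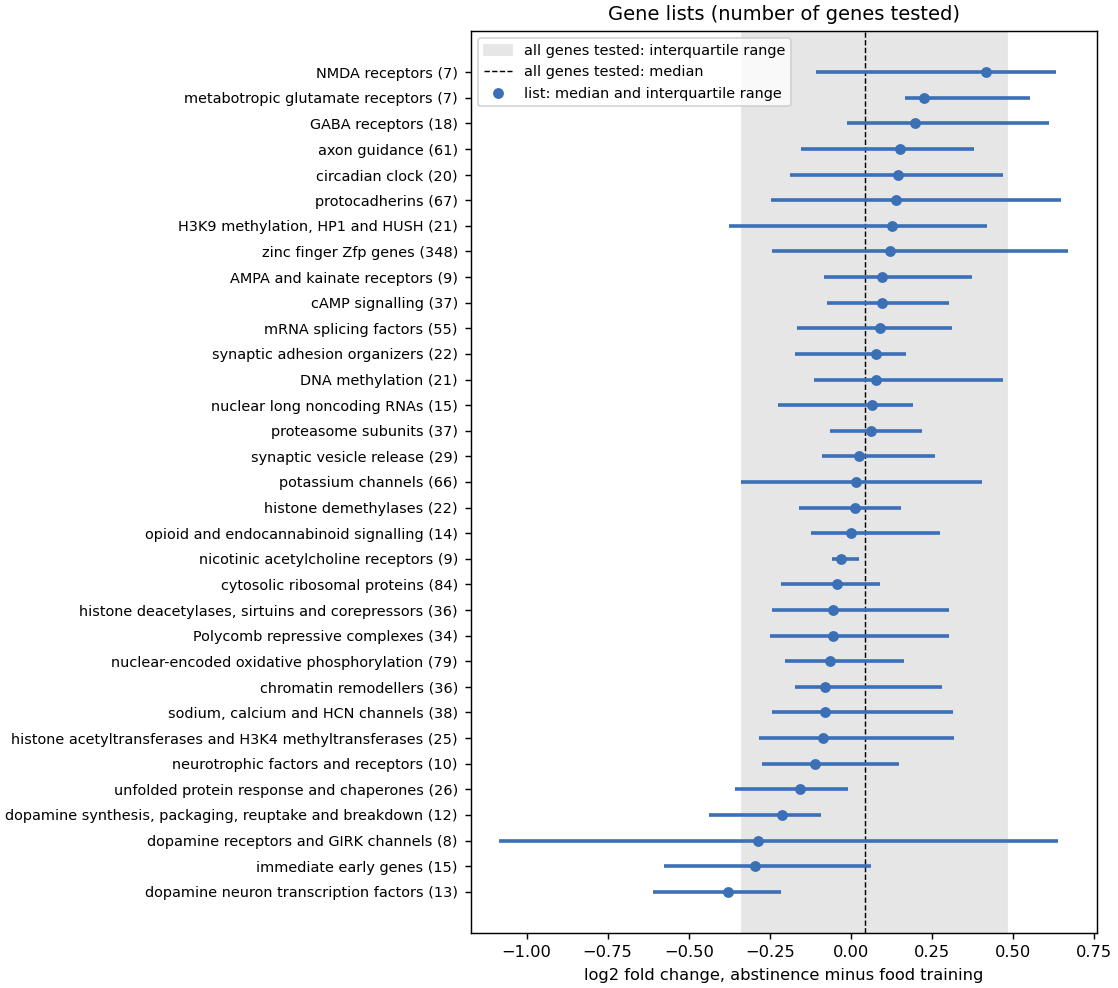
Median (points) and interquartile range (bars) of the log2 fold change (abstinence minus food training, x axis) in each of the 33 lists other than cell type markers, with the number of genes tested in brackets. The grey band and dashed line give the interquartile range (-0.34 to 0.48) and median (0.04) of all 19060 genes. The medians of these lists run from -0.38 for dopamine neuron transcription factors to 0.42 for NMDA receptors, and 1 of them lies outside the band on the lower side.

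Housekeeping groups had medians close to 0. The 79 nuclear-encoded oxidative phosphorylation genes had a median of -0.07 with 0 at an unadjusted p under 0.05. The 84 cytosolic ribosomal protein genes had one of -0.04, with Rps15a at 0.86 (SE 0.34), and the 37 proteasome genes one of 0.06, with Psmd11 at -0.74 (SE 0.25). Psmd11 was at 93.9, 133, 110 and 86.7 CPM and then at 66.9, 45.8, 69.0 and 73.0 CPM, so that all abstinence libraries were lower.

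Among 26 genes of the unfolded protein response and chaperones, 20 were lower, with a median of -0.16 that kept its sign in every alternative run. Ddit3, the stress transcription factor CHOP, was at 118.1, 62.8, 68.6 and 50.4 CPM and then at 35.8, 40.1, 36.9 and 52.0 CPM. The highest abstinence library overlapped the lowest food-trained one, and the log2 fold change was -0.87 (SE 0.31, edgeR p 0.0135). Atf6, a sensor of misfolded protein, differed by -0.86 (SE 0.43) and the chaperone gene Dnajb1 by -0.57 (SE 0.32). At maintenance Ddit3 stood at 74.0 ± 19.9 CPM (n = 3), near the food-trained level. The metallothionein gene Mt1, chosen after its values were seen, was at 93.9 to 177 CPM and then at 44.1 to 85.7 CPM, a log2 fold change of -0.89 (SE 0.30). Its neighbour Mt2 differed by -0.72 (SE 0.52).

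RNA splicing genes were higher in 34 of 55 (median 0.09, and -0.01 without abstinence replicate 4), with groups apart in 4 higher and 0 lower genes, against 2.40% and 0.944% of all genes. Hnrnpll, a regulator of alternative exons, was at 30.8, 25.0, 35.5 and 21.1 CPM after food training and at 64.7, 50.8, 37.3 and 59.0 CPM at abstinence. Its log2 fold change was 0.91 (SE 0.31, edgeR p 0.0116), and its maintenance level of 14.7 ± 1.52 CPM (n = 3) was below both. Rbfox1, a splicing regulator of neurons, was at 65.8, 73.1, 81.5 and 79.4 CPM and then at 92.5, 128.4, 134.7 and 99.95 CPM, a log2 fold change of 0.59 (SE 0.23, edgeR p 0.0242). Non-dopaminergic nuclei held 391 ± 61.3 CPM of Rbfox1 (n = 4). Hnrnpk and Ptbp1 were the other genes with groups apart, at 0.39 (SE 0.19) and 0.60 (SE 0.42).

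Circadian clock genes (20) had a median of 0.15, and -0.05 without abstinence replicate 4. Nr1d1, the repressor REV-ERB alpha, was at 5.93, 13.7, 3.11 and 13.4 CPM and then at 52.0, 14.9, 25.7 and 21.0 CPM, apart, at 1.65 (SE 0.74). Nr1d1 at maintenance spread from 3.05 to 49.0 CPM, across both groups, and the labels give no time of day for tissue collection. Nuclear long noncoding RNAs (15) had a median of 0.06. Malat1, retained in nuclei, took 4.79 to 7.37% of all counts after food training and 3.32 to 5.41% at abstinence, a log2 fold change of -0.50 (SE 0.30).

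The maintenance comparison uses the same food-trained libraries, so its values stand beside those of abstinence and are no separate evidence. Against food training, maintenance differed in Setdb1 by 0.59 where abstinence differed by 1.87, in Tfrc by 0.57 and 1.41, in Apbb3 by -0.23 and 1.30, in Hbb-bs by -0.72 and -1.52, and in Cdkn1a by -0.19 and -2.01. Abstinence against maintenance, which is the test of that difference, gave 1.28 for Setdb1 (edgeR adjusted p 0.404), 1.52 for Apbb3 (0.0754) and -1.81 for Cdkn1a (0.338). The same test gave 0.85 for Tfrc (edgeR adjusted p 0.417) and -0.80 for Hbb-bs (0.540).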

How the data were processed

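Nuclear RNA was counted per gene in 15 libraries. For each of 35976 gene symbols, raw counts were deposited by the authors. Per the submitters' processing notes, Trim Galore 0.6.7, cutadapt 1.18, STAR 2.7.10a, StringTie 2.1.5, DESeq2 1.38.3 and the build mm10/GRCm38 were named. Annotation and strand setting were not given in the sources used here, so overlapping genes and near-identical copies are uncertain. A second deposited table, of 10 libraries, held the same counts and was not used, apart from choosing the libraries of 1 alternative. Some genes are not reported here.

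The main test was that of edgeR 4.0.16 in R 4.3.3 (filterByExpr, TMM, quasi-likelihood F-test, two-sided, with Benjamini-Hochberg adjustment) over the 11 dopaminergic libraries, which share 1 estimate of the spread. Standard errors were derived from the fold change and its F statistic, and 95% intervals from these. DESeq2 1.42.0 and limma 3.58.1 were alternatives. The steps were tested on simulated data. Library totals of 25813700 to 59046600 set the counting precision, and PCR duplicates carry no identifiers, so floors of 3 counts cover counting error only. RefSeq coordinates and types (GRCm38.p6) matched 17528 of 19060 tested symbols.

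Genes were named by rule: the 12 higher and 12 lower with the lowest edgeR p among genes averaging 20 or more counts whose groups did not overlap, leaving out predicted genes, the 6 of each direction with the lowest DESeq2 adjusted p, and up to 3 per list plus any without overlap. The members, lists and rules were chosen with earlier results of these data known. Alternatives were other scalings, filters, tests and sets of libraries, a replicate block and each library left out.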

Additional observations from a re-analysis of the deposited data

Results flagged for a closer look

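A single library was checked against the rest of its group over named genes, library measures and marker sums, at most 98 checks. The 98 include groups at or under 3 counts and measures at 0 throughout, in which no library could stand apart. In 5 checks a library stood apart, and these fell in 3 libraries. All but that of Cyp2j12 were marker sums in food-trained replicates 3 and 4. Chance gives about 1 in 20 groups, so some of the 5 may be chance. Cyp2j12, at 0 in every food-trained library, was at 0.197 CPM in abstinence replicate 1 and at 3.82 to 4.30 CPM in the others. Food-trained replicate 3 had the lowest sum of glutamate neuron markers (166.8 CPM, against 584 to 666 CPM) and of serotonin neuron markers (27.4 CPM, against 38.8 to 40.6 CPM). Food-trained replicate 4 had the highest sum of oligodendrocyte precursor markers (21.7 CPM, against 0 to 3.37 CPM) and of vascular markers (41.2 CPM, against 0 to 4.36 CPM).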

How the results depend on the processing

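The edgeR count of genes past the adjusted threshold was 0 in every edgeR and limma alternative and when each library was left out (0 to 0). DESeq2 called 125 genes over 11 libraries and 156 of 18539 genes (0.841%; 132 higher, 24 lower) over the 10 libraries without food-trained replicate 3, an alternative chosen after seeing the data. They shared 109 genes, 87.2% of the first and 69.9% of the second set. Stbd1 and Prps1l3 had DESeq2 adjusted p-values of 0.183 and 0.0719 in the second. The count at an unadjusted p under 0.05 (819), also added after seeing the data, was 425 with at least 10 counts in every library (201 higher, 224 lower), 466 in the 8 compared libraries alone (276 and 190) and 2453 with all 15 libraries (1797 and 656). It ranged from 604 (without abstinence replicate 2) to 1179 (without food-trained replicate 4) when 1 library was left out. The causes were not tested. Of the 24 genes named by lowest edgeR p, whose direction the rule on group overlap fixes, none passed outside DESeq2, with adjusted p-values from 0.315 to 1. The sign of the median changed in at least 1 alternative in 29 of 42 lists.

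Replicate numbers are shared between groups, but nothing in the labels pairs them. Same-numbered libraries had correlations of deviations from -0.238 to 0.0589, other pairs -0.235 to 0.230, and 0 of 4 abstinence libraries correlated best with their own number. With the replicate number as a block, 0 genes passed and 421 were at an unadjusted p under 0.05 (310 higher, 111 lower).

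Depth limits genes of low abundance: counts of 0 in 4 food-trained libraries allow a level of up to 0.0778 CPM on average.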
